A study of Homo sapiens with 12 samples.

Results

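The vacuolar proton pump (V-ATPase) and the ion channels and exchangers of the lysosomal membrane were examined in 12 RNA libraries from hydroxychloroquine-evolved and control cancer cells. The members were the rows of the count table whose symbol starts with ATP6V0, ATP6V1 or ATP6AP, plus CLCN3 to CLCN7, OSTM1, MCOLN1 to MCOLN3, TPCN1, TPCN2, TMEM175, TMEM9, DMXL1, DMXL2 and WDR7. The rule gave 46 of the 28278 rows and used no measured value.

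The samples were labelled OVCAR3, an ovarian cancer line, and CCL218, a colorectal cancer line. HCQ-evolved pools had received 15 pulses of hydroxychloroquine (HCQ) of 48 h each, with regrowth between pulses and 7 days without drug before collection, and carry the label passage 15. Control pools were passaged without the drug and carry the label passage 19, so drug, plate and passage label cannot be told apart. Each group had 3 pools of polyA-selected RNA, from the left (L), middle (M) and right (R) of one 96-well plate per group, and p-values measure only the spread between pools of a plate.

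The V-ATPase burns ATP to move protons into endosomes, lysosomes and secretory vesicles. Its V1 sector in the cytosol holds the ATPase subunits A and B and the rotor and stator subunits, and its V0 sector in the membrane holds the proton-carrying c ring and the large subunit a. Chloride-proton exchangers of the CLC family and cation channels such as mucolipin and the TPC channels move the counter-ions and calcium of the same compartments. HCQ is a weak base that collects in acid compartments and raises their pH.

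Library totals ran from 31147822 to 59965861 counts. The labels were checked against fixed marker lists, given as CPM, the counts scaled to a common library size after TMM normalization. Epithelial markers were high in every pool, with a summed level of 10688 to 30342 CPM. The 9 ovarian markers summed to 58.7 to 94.99 CPM in OVCAR3 and 61.3 to 92.7 CPM in CCL218. SOX17 was at 0 counts in every pool, and PAX8, a factor of Mullerian epithelium, was at 12.01 ± 2.79 CPM in control OVCAR3 (SD, n = 3). The 10 colorectal markers summed to 144 to 429 CPM in OVCAR3, 344 to 427 CPM in control CCL218 and 516 to 590.3 CPM in its HCQ-evolved pools. The intestinal factor HNF4A was at 76.5 ± 12.2 CPM in control OVCAR3 and 117 ± 24.3 CPM in control CCL218. Between control groups, edgeR called 0 of 6 tested ovarian markers, with 5 lower and 1 higher in CCL218. Of 8 tested colorectal markers, 7 lay higher and 1 lower in CCL218, and 1 was called, CEACAM5, as higher (adjusted p = 0.012, edgeR). The colorectal marker that lay lower in CCL218, VIL1, was at 241 ± 46.6 CPM in control OVCAR3 and 187 ± 12.9 CPM in control CCL218. Over all 12613 genes tested, edgeR called 3.42% between the control groups. The summed levels alone thus did not set the libraries labelled OVCAR3 apart as ovarian. Whether the libraries come from distinct lines was not tested, so statements about both lines below follow the labels. The 7 fibroblast and haematopoietic markers other than LYZ, which many epithelia also make, summed to at most 1.01 CPM in any pool. LYZ itself was high in every pool under both labels, at 1294 to 2761 CPM. In CCL218, 4 of 7 tested colorectal markers were called higher in HCQ-evolved pools, among them CDH17 at 3.84 ± 1.26 CPM in control and 52.5 ± 6.66 CPM in HCQ-evolved pools, and LGR5 was called lower, at 37.5 ± 8.65 and 16.6 ± 2.02 CPM. The part of these marker differences in the results below was not tested.

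The promoters of the pump genes are described before their RNA levels, because lysosomal genes share a palindromic element. The E-box CACGTG is the core of the CLEAR element that the MiT/TFE factors TFEB, TFE3 and MITF bind. RefSeq promoters (GRCh38.p14, from 250 bases before to 50 after the start) were matched for 35 of the 46 members. CACGTG lay in 8 of these 35 (22.9%) and in 7.43% of all 27305 promoters of that length. The longer TCACGTGA lay in 4 (11.4%) against 1.04%, and its form of 10 bases, with G before and C after, lay in 2 (5.7%) against 0.38%. Each shorter motif lies within the longer ones, and all read the same on both strands. No match is claimed to be a bound site. Windows of CLCN6, which also holds TCACGTGA, and of ATP6V0B and CLCN4, which hold CACGTG, are not printed. Also not printed is another MCOLN1 window, with TCACGTGA (chr19:7522561-7522610, plus strand). RNA results were known when the printed windows were chosen. The windows below, with the longest of these motifs in capitals, belong to the member that fell in CCL218 (ATP6V0E2), to the pair with the 10-base form (ATP6V1G1 and MCOLN1), to ATP6V0D1 with TCACGTGA, and to CLCN7, which was lower in both lines without passing the test. A further CACGTG in the CLCN7 window is left in lower case. Their positions are chr7:149872874-149872923 on the plus strand (ATP6V0E2), chr9:114587689-114587738 on the plus strand (ATP6V1G1), chr19:7522588-7522637 on the plus strand (MCOLN1), chr16:67481189-67481238 on the minus strand (ATP6V0D1) and chr16:1475048-1475097 on the minus strand (CLCN7).
ATP6V0E2: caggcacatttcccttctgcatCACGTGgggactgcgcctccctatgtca
ATP6V1G1: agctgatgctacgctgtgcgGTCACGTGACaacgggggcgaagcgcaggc
MCOLN1: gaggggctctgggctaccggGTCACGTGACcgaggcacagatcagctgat
ATP6V0D1: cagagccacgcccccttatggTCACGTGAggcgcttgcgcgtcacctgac
CLCN7: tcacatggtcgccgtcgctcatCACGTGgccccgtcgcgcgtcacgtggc

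RNA of every V0 and V1 position was present in both lines, and several tissue-restricted members were at or near 0. Of the 46 members, 34 passed the filter (at least 1 CPM in at least 3 of 6 libraries) in OVCAR3, 35 in CCL218, 33 in both, and 36 in the fit of all 12 libraries. The other 10 were tested nowhere. ATP6V1G3, a G subunit of kidney intercalated cells, and the pseudogene ATP6V0CP3 had 0 counts in every pool, which allows up to 3 counts in each. ATP6V1G2, the brain form of subunit G, had 2 counts in a single pool and 0 in the others, and ATP6V0D2, the osteoclast and kidney form of subunit d, had 0 to 4 counts.

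Levels between genes were compared per kilobase of the canonical transcript (GENCODE 44). The proteolipid c subunit ATP6V0C, several copies of which form the c ring, led all members at 326, 279.9, 242 and 197 CPM per kb in control OVCAR3, HCQ-evolved OVCAR3, control CCL218 and HCQ-evolved CCL218. Reads of ATP6V0C may be shared, since 60.9% of its exon bases also belong to another annotated gene on the same strand. The V1 subunit ATP6V1F stood at 114, 99.7, 84.3 and 51.3 CPM per kb, second in OVCAR3 only. The accessory subunit ATP6AP1, a V0 assembly factor, stood at 86.4, 78.3, 86.8 and 90.8 CPM per kb and was second in both CCL218 groups. CLCN7, the lysosomal chloride-proton exchanger, led its group in control OVCAR3, HCQ-evolved OVCAR3 and control CCL218, at 14.6 to 21.3 CPM per kb, while in HCQ-evolved CCL218 CLCN3 (17.1 CPM per kb) was above it (15.9 CPM per kb). TPCN1, an endolysosomal cation channel, led the channels at 10.9 to 15.7 CPM per kb. Among the RAVE proteins, which help V1 join V0, DMXL2 led at 2.99 to 4.94 CPM per kb.

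**Figure D1:**
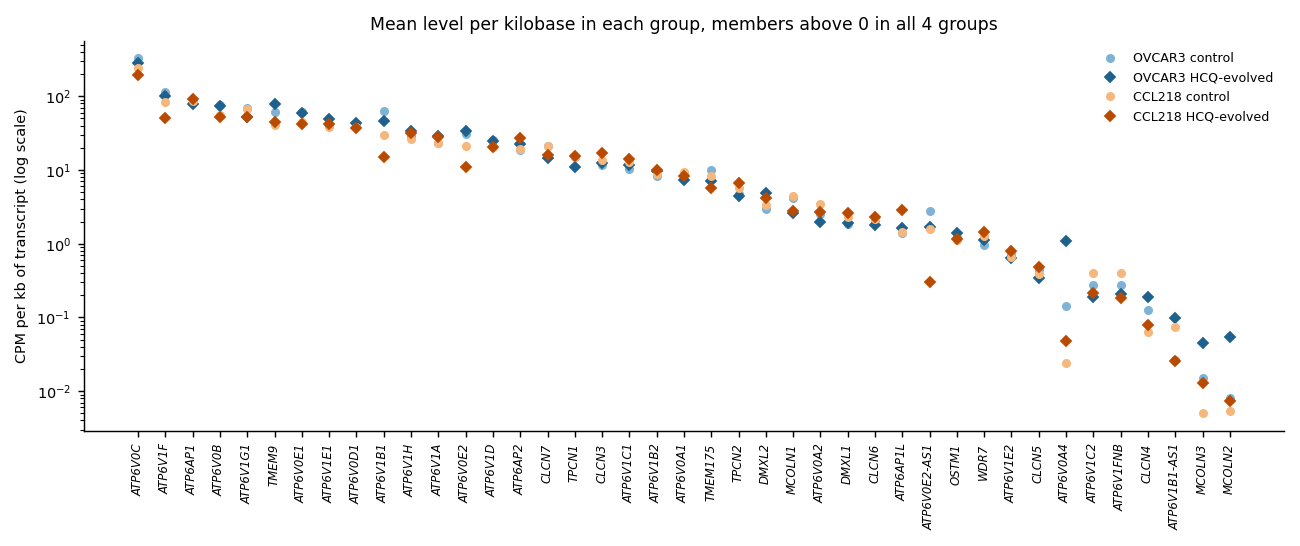
Mean level of each member in the 4 groups, in CPM per kilobase of canonical transcript on a log axis, for members above 0 in all groups. ATP6V0C stands above all others in every group, at 197 to 326 CPM per kb.

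In OVCAR3, no member of the pump or of the lysosomal ion transporters passed the test after HCQ evolution. The edgeR quasi-likelihood test called 0 of 34 members at an adjusted p of 0.05, against 0.647% of all 12204 genes called higher and 1.21% called lower. At an unadjusted p under 0.05 there were 0 higher and 2 lower, CLCN7 and MCOLN1, against 8.38% and 7.87% of all genes. DESeq2 also called 0 of 34, against 9.05% of all genes. The log2 fold changes had a median of -0.04 (0.02 over all genes tested) and ran from -0.68 to 0.74. They were above 0 for 15 members and below 0 for 19, against 51.6% and 48.4% of all genes. The 3 HCQ-evolved pools lay above all 3 controls for 1 member and below them for 6, against 13.0% and 12.7% of all genes.

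In CCL218, 1 member rose and 1 fell. ATP6AP1L, a relative of the accessory subunit ATP6AP1 that is annotated as a transcribed pseudogene, was 1.996-fold higher, and ATP6V0E2, a paralog of the small V0 subunit e, was at 0.505 of its control level. Thus edgeR called 2 of 35 members, against 3.82% of all 12241 genes called higher and 2.64% called lower. At an unadjusted p under 0.05 there were 2 higher and 6 lower, against 12.5% and 12.7%. The median log2 fold change was 0.06 (-0.02 over all genes tested), with 19 members above 0 and 16 below, against 48.3% and 51.7% of all genes. Pools lay apart upward for 5 members and downward for 6, against 18.6% and 17.3% of all genes. With a block for plate position, edgeR called 4 of 35 members (11.4%), adding ATP6V1B1 and MCOLN1 as lower, against 14.2% of all genes under that block. In pooled cells, fewer cells that make a transcript and less transcript per cell cannot be told apart.

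**Figure D2:**
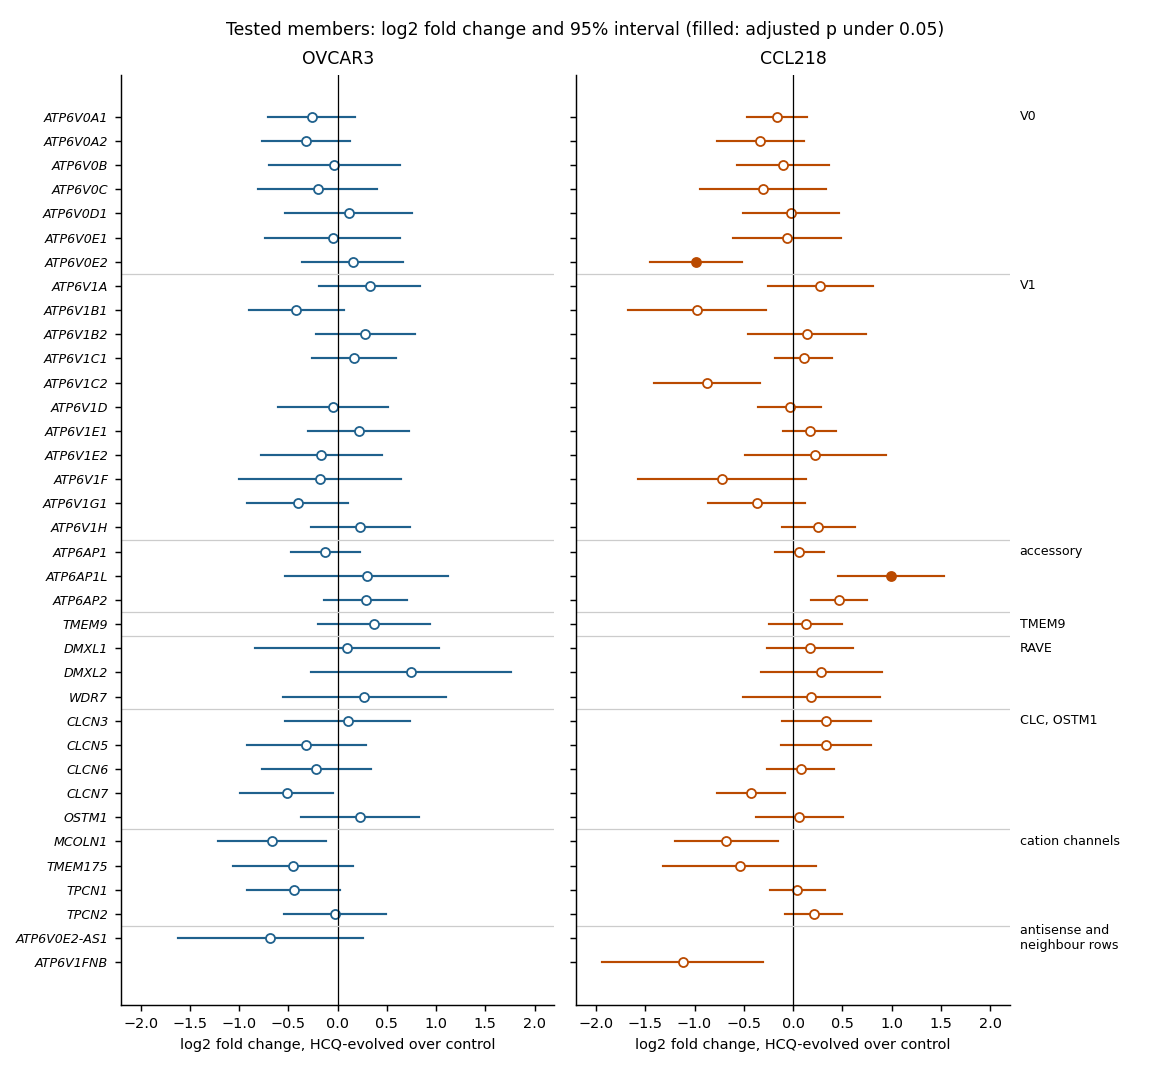
Log2 fold change of each tested member (HCQ-evolved over control) with its 95% interval, by line and by role, from edgeR. Filled points passed an adjusted p of 0.05, which are ATP6V0E2 and ATP6AP1L in CCL218, while in OVCAR3 all points are open.

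Within V0, the member that passed the test in CCL218 encodes subunit e. This is a small membrane protein of the pump's base and exists as ATP6V0E1 and ATP6V0E2. ATP6V0E2 (chr7:149872968-149891204, plus strand, hg38) measured 45.3, 30.1 and 35.6 CPM in the L, M and R control pools of CCL218 and 20.5, 15.5 and 20.2 CPM in the HCQ-evolved pools. Every HCQ-evolved pool lay below every control pool. The log2 fold change was -0.99 (SE 0.20, 95% interval -1.45 to -0.52, adjusted p = 0.0332, edgeR). The call held with control L (adjusted p = 0.00242) or control M (0.034) left out. It was lost with control R (0.102), HCQ-evolved L (0.124), M (0.18) or R (0.127) left out, all with log2 fold changes between -1.11 and -0.82. Over the other alternatives its adjusted p ran from 0.000128 to 0.0326.

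In OVCAR3, ATP6V0E2 measured 65.5, 40.4 and 53.7 CPM in control pools and 63.9, 61.8 and 49.2 CPM in HCQ-evolved pools. The groups overlapped, with a log2 fold change of 0.15 (95% interval -0.36 to 0.67, adjusted p = 0.783, edgeR). The difference between the lines' changes was -1.11 on the log2 scale (95% interval -1.79 to -0.44) and did not pass the interaction test (adjusted p = 0.151, edgeR). This p ran from 0.00439 to 0.245 over the other alternatives and from 0.0869 to 0.428 with single pools left out.

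The paralog ATP6V0E1 did not pass the test. It measured 86.0, 46.4 and 57.1 CPM in control CCL218 and 67.1, 59.0 and 55.7 CPM in HCQ-evolved CCL218. These pools overlapped (log2 fold change -0.06, 95% interval -0.61 to 0.48, adjusted p = 0.882, edgeR). As a share of both e paralogs in CPM per kb, ATP6V0E2 made up 30.3, 34.8 and 33.9% in control CCL218 and 20.1, 17.7 and 23.0% in HCQ-evolved CCL218. Its mean share was thus 33.0% ± 2.41 in control pools and 20.3% ± 2.63 in HCQ-evolved pools, with no overlap. The exact permutation test gave p = 0.1, two-sided, the smallest that 3 pools against 3 allow, and 0.333 after adjustment over 10 such shares. These were the shares of ATP6V0E2, ATP6V1B1, ATP6V0A1, ATP6V0A2 and TCIRG1 in each line, and other paralog shares were not tested. In OVCAR3 the shares were 33.4% ± 1.97 and 37.3% ± 5.42 (exact permutation p = 0.4).

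An antisense gene overlaps 12.8% of the exon bases of ATP6V0E2, and whether counting used the strand is not stated. This antisense row, ATP6V0E2-AS1, had 1.01, 0.653 and 0.469 CPM in control CCL218 and 0.205, 0.109 and 0.100 CPM in HCQ-evolved CCL218. The row fell below the filter in the fit of CCL218 alone. In the fit of all 12 libraries it was called lower with ATP6V0E2 (log2 fold change -2.35, adjusted p = 0.0192, edgeR), and likewise with no filter (-2.31, adjusted p = 0.0197). In OVCAR3 it measured 1.24 ± 0.131 CPM in controls and 0.765 ± 0.393 CPM in HCQ-evolved pools (adjusted p = 0.457, edgeR).

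**Figure D3:**
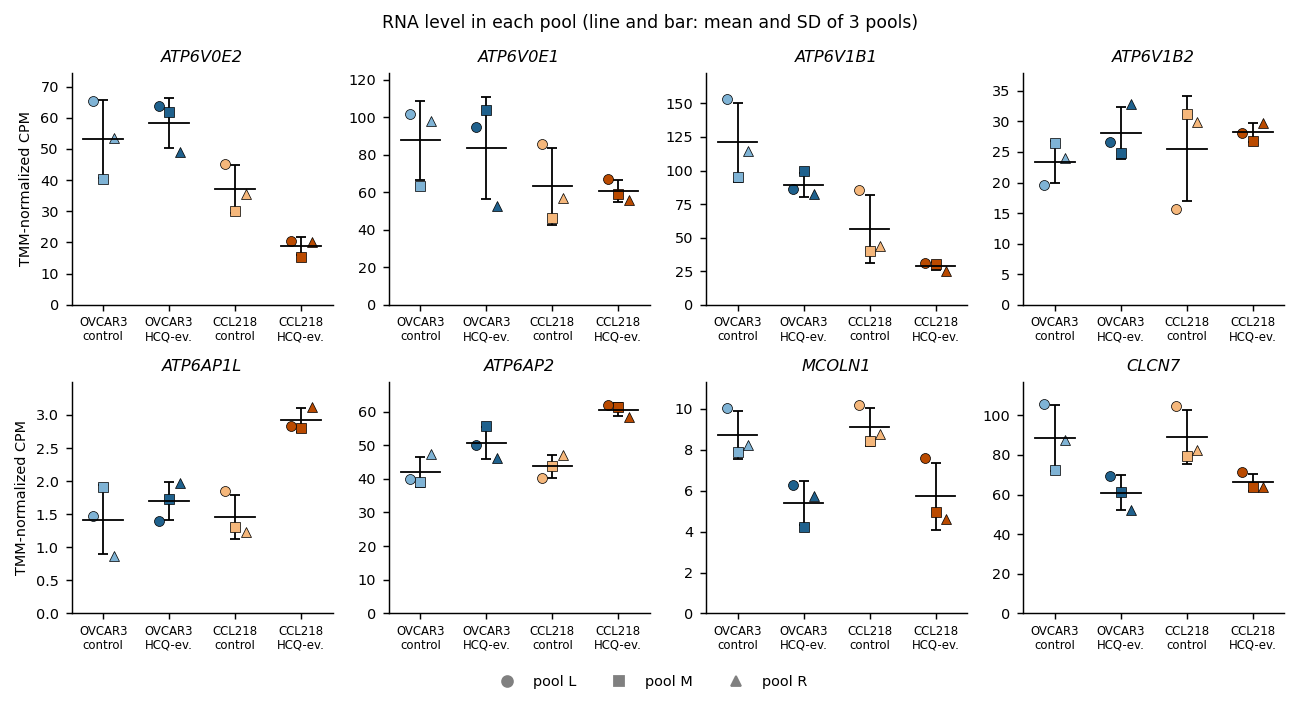
RNA level (TMM-normalized CPM) of 8 members in each pool, with symbols for plate position and the mean and SD of 3 pools. ATP6V0E2 falls and ATP6AP1L rises in CCL218 with no overlap, ATP6V0E1 overlaps in both lines, and MCOLN1 and CLCN7 sit lower in HCQ-evolved pools of both lines without passing the test.

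The other V0 subunits had no call in either line. Subunit a carries the proton path and directs the pump to its compartment. Counting TCIRG1, its a3 form, which falls outside the symbol rule, the shares of position a in control OVCAR3 were 73.5% ± 3.91 for TCIRG1, 20.4% ± 3.01 for ATP6V0A1, 5.84% ± 0.863 for ATP6V0A2 and 0.33% ± 0.11 for ATP6V0A4. The TCIRG1 share was 78.6% ± 6.18 in HCQ-evolved OVCAR3, 70.3% ± 7.38 in control CCL218 and 78.3% ± 2.10 in HCQ-evolved CCL218, and the exact permutation p was 0.3 in both lines. The ATP6V0A2 share was 5.84% ± 0.863 in control OVCAR3 and 4.13% ± 0.648 in HCQ-evolved OVCAR3, with no overlap (exact permutation p = 0.1, 0.333 adjusted), and in CCL218 the exact permutation p was 0.3.

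ATP6V0A2, the a2 form of Golgi and endosomes, had the smallest p of the V0 genes in OVCAR3. Its control pools stood at 16.3, 16.7 and 16.4 CPM and its HCQ-evolved pools at 13.6, 10.96 and 14.5 CPM. All HCQ-evolved pools were lower, by -0.32 on the log2 scale (95% interval -0.76 to 0.13, adjusted p = 0.464, edgeR). In CCL218 its log2 fold change was -0.33 (adjusted p = 0.313, edgeR), and the pools overlapped. Without control L, which at 16.3 CPM lay below the other controls at 25.5 and 25.0 CPM, the adjusted p was 0.00513.

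ATP6V0A4, the a4 form of renal and inner-ear proton-secreting cells, was high in a single pool. Its raw counts were 19, 18 and 16 in control OVCAR3 and 46, 48 and 504 in the L, M and R pools of HCQ-evolved OVCAR3. In CPM the HCQ-evolved pools were at 0.803, 0.926 and 8.44, and the controls were at 0.296 to 0.565. The R pool stood far above all others, and the L and M pools lay just above the controls. In CCL218 it had 2 to 12 counts per pool. It was below the filter, and with no filter its log2 fold change in OVCAR3 was 3.01 (SE 1.004, adjusted p = 0.239, edgeR).

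ATP6V0C measured 383, 192 and 220.1 CPM in control CCL218 and 251, 189.6 and 204 CPM in HCQ-evolved CCL218. The control L pool alone was far above the rest, and the log2 fold change was -0.31 (95% interval -0.94 to 0.33, adjusted p = 0.504, edgeR). In OVCAR3 it was -0.20 (95% interval -0.80 to 0.40). ATP6V0D1, the ubiquitous subunit d, took nearly all of its position, ATP6V0D2 having 0 to 4 counts, with log2 fold changes of 0.11 in OVCAR3 and -0.02 in CCL218. ATP6V0B, the c'' subunit of the ring, was at -0.03 and -0.10.

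No V1 gene passed the test, and ATP6V1B1 of subunit B had the largest fold difference among those tested in each line, while ATP6V1C2 had the smaller p in CCL218. Subunit B carries part of the ATP-binding site, and its B1 form ATP6V1B1 is known from proton-secreting epithelia while ATP6V1B2 is ubiquitous. ATP6V1B1 measured 85.6, 40.2 and 43.8 CPM in control CCL218 and 30.8, 30.5 and 25.3 CPM in HCQ-evolved CCL218. All HCQ-evolved pools were lower, and control L was well above the other controls. The log2 fold change was -0.97 (95% interval -1.67 to -0.27, adjusted p = 0.103, edgeR). The adjusted p was 0.0223 with the plate-position block and 0.0149 with DESeq2, and without control L the log2 fold change was -0.55 (adjusted p = 0.00612). Without each of the other pools in turn it lay between -1.16 and -0.88, with adjusted p of 0.0712 to 0.316.

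In OVCAR3, ATP6V1B1 stood at 153, 95.4 and 115 CPM in controls and 86.0, 99.3 and 82.2 CPM in HCQ-evolved pools. The pools overlapped (log2 fold change -0.42, 95% interval -0.90 to 0.06, adjusted p = 0.374, edgeR). Of the exon bases of ATP6V1B1, 63.1% overlap a neighbouring same-strand gene model that includes VAX2, so part of its counts may be shared.

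ATP6V1B1 led position B in both lines. It made up 92.2, 84.4 and 87.7% of the B paralogs in control OVCAR3 and 82.9, 85.7 and 78.9% in HCQ-evolved OVCAR3. In CCL218 its share was 89.1, 65.9 and 68.7% in control pools and 62.2, 63.1 and 56.0% in HCQ-evolved pools. The CCL218 groups did not overlap (exact permutation p = 0.1, 0.333 adjusted), with a mean difference of -14.2 percentage points, against -5.56 points in OVCAR3 (exact permutation p = 0.2). ATP6V1B2 itself overlapped in both lines, with log2 fold changes of 0.28 (95% interval -0.22 to 0.78) and 0.14 (95% interval -0.46 to 0.74).

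**Figure D4:**
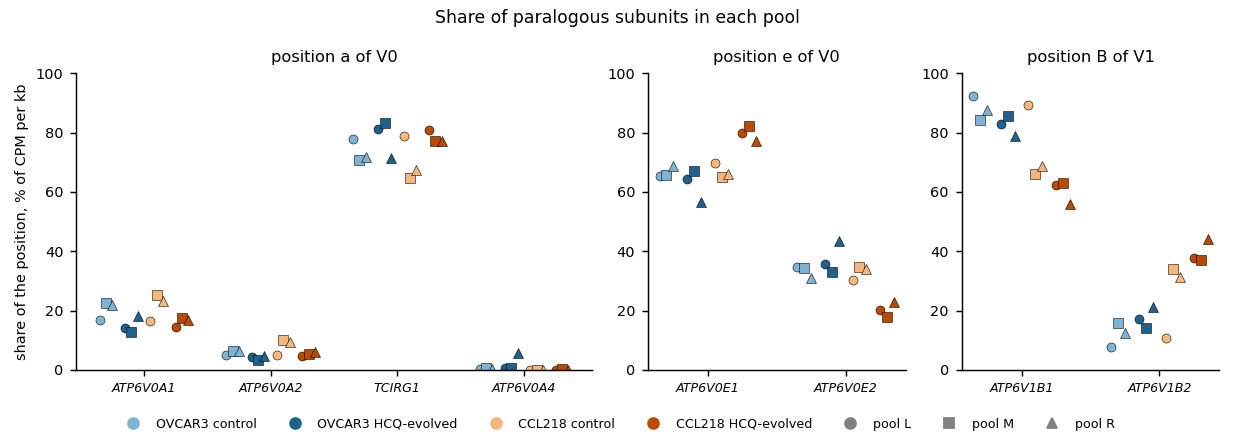
Share of each paralog at positions a, e and B, in percent of the summed CPM per kb, for every pool. ATP6V0E2 and ATP6V1B1 hold smaller shares in HCQ-evolved CCL218 than in any control CCL218 pool, and ATP6V0A4 rises above 1% only in the R pool of HCQ-evolved OVCAR3.

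ATP6V1A, the catalytic subunit that the study's genetic screen names, measured 82.6, 122 and 119 CPM in control OVCAR3 and 122, 127 and 151 CPM in HCQ-evolved OVCAR3. The HCQ-evolved pools were all higher, by a small margin over control M (log2 fold change 0.33, 95% interval -0.19 to 0.84, adjusted p = 0.52, edgeR). In CCL218 it stood at 68.7, 123 and 124 CPM in control pools and 120.2, 132 and 131 CPM in HCQ-evolved pools, with overlap and a log2 fold change of 0.28 (95% interval -0.26 to 0.81, adjusted p = 0.47, edgeR). In both lines the control L pool was low and the other control pools were near the HCQ-evolved ones.

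ATP6V1C2, the lung and kidney form of the stator subunit C, was rare, at 1.40, 1.35 and 1.11 CPM in control CCL218 and 0.677, 0.692 and 0.735 CPM in HCQ-evolved CCL218. The groups lay apart (log2 fold change -0.87, 95% interval -1.42 to -0.33, adjusted p = 0.0707, edgeR). ATP6V1C2 passed the filter in CCL218 only through its control pools, the group where it is high, which limits this test. PDIA6 on the other strand overlaps much of it, 29.5% of its exon bases. In OVCAR3 it was under the filter, at 0.909 ± 0.0202 and 0.619 ± 0.120 CPM. ATP6V1C1, the ubiquitous form, made up 97.01 to 98.5% of position C in the group means. The small ATP6V1C2 share was lower in every HCQ-evolved pool of both lines than in any control. Its means were 2.64% in control and 1.61% in HCQ-evolved OVCAR3, and 2.99% and 1.52% in CCL218. This share was not tested.

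ATP6V1F, a small V1 subunit, did not pass the test in either line. It stood at 113, 48.9 and 71.1 CPM in control OVCAR3 and 80.1, 80.3 and 42.4 CPM in its HCQ-evolved pools. In CCL218 ATP6V1F was at 93.7, 36.7 and 41.1 CPM in control pools and 41.3, 30.1 and 32.9 CPM in HCQ-evolved pools, and control L again was far above the rest (log2 fold change -0.72, 95% interval -1.58 to 0.13, adjusted p = 0.263, edgeR). ATP6V1FNB, an adjacent gene that only shares the name, was at 1.57 ± 0.634 and 0.718 ± 0.135 CPM in CCL218 (adjusted p = 0.105, edgeR). It too passed the filter there only through its control pools.

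ATP6V1G1, the ubiquitous G subunit whose promoter window is printed above, held its whole position, since both other G forms were at 0 or 2 counts. It measured 127, 86.2 and 115 CPM in control OVCAR3 and 89.8, 91.4 and 63.9 CPM in HCQ-evolved OVCAR3. The groups overlapped (log2 fold change -0.41, 95% interval -0.92 to 0.10, adjusted p = 0.413, edgeR), as in CCL218 (-0.37). ATP6V1E1, ATP6V1E2, ATP6V1D and ATP6V1H had log2 fold changes between -0.16 and 0.26 in the lines, with no adjusted p below 0.348.

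All 3 rows of the accessory group lay higher in every HCQ-evolved pool of CCL218, as did 18.6% of all genes. Of these, 1 passed the test, ATP6AP1L, which is annotated as a transcribed pseudogene. The protein-coding ATP6AP1 and ATP6AP2 did not pass (adjusted p = 0.74 and 0.0649, edgeR). In OVCAR3, 0 of the 3 lay apart upward and 1, ATP6AP1, lay apart downward. ATP6AP1L (chr5:82279462-82386977, plus strand) stood at 1.84, 1.31 and 1.24 CPM in control pools and 2.83, 2.81 and 3.13 CPM in HCQ-evolved pools. All HCQ-evolved pools were higher (log2 fold change 0.997, SE 0.23, 95% interval 0.46 to 1.53, adjusted p = 0.0478, edgeR). These are 58 to 75 counts against 138 to 187. The call held without control L (adjusted p = 0.00282). It was lost without control M (0.0996), control R (0.146), or HCQ-evolved L (0.164), M (0.193) or R (0.179), and in the fit of all 12 libraries (0.0777). Over the other alternatives the adjusted p ran from 0.000915 to that value. In OVCAR3 it overlapped, at 1.42 ± 0.525 and 1.70 ± 0.290 CPM, and the interaction did not pass (log2 difference 0.72, 95% interval -0.19 to 1.64, adjusted p = 0.741, edgeR).

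ATP6AP2, the prorenin receptor and a pump assembly factor, measured 40.2, 43.8 and 47.1 CPM in control CCL218 and 61.8, 61.5 and 58.4 CPM in HCQ-evolved CCL218. The groups lay well apart, and the log2 fold change of 0.47 (95% interval 0.19 to 0.75, adjusted p = 0.0649, edgeR) missed the threshold. It passed with DESeq2 (0.00132), with the length and GC trend removed (0.0163) and without control L (0.0101). Its adjusted p ran from 0.11 to 0.279 without each of the other pools. In OVCAR3 the controls were at 39.9, 39.1 and 47.2 CPM and the HCQ-evolved pools at 50.1, 55.8 and 46.1 CPM, with overlap and a log2 fold change of 0.28 (adjusted p = 0.491, edgeR).

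ATP6AP1 had small differences. It stood at 180.3, 176 and 178 CPM in control CCL218 and 194, 185 and 181 CPM in HCQ-evolved CCL218, a log2 fold change of 0.06 (95% interval -0.19 to 0.31). TMEM9, a lysosomal protein that binds the pump, was at 122 ± 20.1 and 156 ± 43.3 CPM in OVCAR3 (log2 fold change 0.37, adjusted p = 0.505, edgeR) and at 81.1 ± 12.7 and 89.0 ± 9.90 CPM in CCL218 (0.13, adjusted p = 0.625).

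The RAVE proteins DMXL1, DMXL2 and WDR7 had log2 fold changes above 0 in both lines, and none passed the test. DMXL2 stood at 24.8, 44.2 and 26.3 CPM in control OVCAR3 and at 34.0, 35.5 and 87.5 CPM in HCQ-evolved OVCAR3. The R pool was high, and the other HCQ-evolved pools lay within the control range (log2 fold change 0.74, 95% interval -0.27 to 1.76, adjusted p = 0.452, edgeR). In CCL218 its log2 fold change was 0.29 (95% interval -0.32 to 0.90).

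CLCN7 was lower in HCQ-evolved pools of both lines, without passing the test. CLCN7 exchanges chloride for protons across the lysosomal membrane together with its partner OSTM1. In OVCAR3 it measured 105, 72.1 and 87.4 CPM in control pools and 69.4, 61.4 and 52.0 CPM in HCQ-evolved pools. In CCL218 it measured 104, 79.6 and 82.5 CPM in control pools and 71.2, 63.8 and 63.8 CPM in HCQ-evolved pools. No HCQ-evolved pool reached a control pool in either line. The log2 fold changes were -0.52 (95% interval -0.99 to -0.04, adjusted p = 0.263, edgeR) and -0.43 (95% interval -0.77 to -0.08, adjusted p = 0.13). In CCL218 it passed with DESeq2 (0.0433), with the length and GC trend removed (0.0404) and without control L (0.0392), within a range of 0.0392 to 0.43 over all alternatives.

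OSTM1 overlapped in both lines, with log2 fold changes of 0.23 (95% interval -0.37 to 0.83) and 0.06 (95% interval -0.38 to 0.51). The endosomal exchangers CLCN3, CLCN5 and CLCN6 had overlapping pools in both lines. CLCN5 was at -0.32 in OVCAR3 and 0.34 in CCL218, and the difference did not pass the interaction test (0.68, 95% interval 0.02 to 1.34, adjusted p = 0.528, edgeR). CLCN4 had 16 to 138 counts per pool, the highest in the R pool of HCQ-evolved OVCAR3.

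MCOLN1 is the lysosomal calcium and iron channel mucolipin. Among members tested in both lines, it was the other member, beside CLCN7, below control in every HCQ-evolved pool of both. Its OVCAR3 controls stood at 10.1, 7.88 and 8.23 CPM and its HCQ-evolved pools at 6.27, 4.22 and 5.74 CPM. In CCL218 the controls were at 10.2, 8.44 and 8.77 CPM and the HCQ-evolved pools at 7.59, 4.96 and 4.63 CPM. The groups did not overlap in either line. The log2 fold changes were -0.67 (95% interval -1.21 to -0.12, adjusted p = 0.211, edgeR) and -0.68 (95% interval -1.20 to -0.16, adjusted p = 0.118). In CCL218 the block gave an adjusted p of 0.0318 and DESeq2 0.0348, within a range of 0.0318 to 0.404 over all alternatives. CLCN7 and MCOLN1 were 2 of 33 members tested in both lines (6.06%) with pools apart and lower in both, against 6.37% of all 11944 genes. Of these 33, 0 were higher in both, against 7.03%. Outside these 33, ATP6V1C2, below the filter in OVCAR3, was also lower in every HCQ-evolved pool of both lines. ATP6V0A4, tested in neither line and at 2 to 12 counts in CCL218, was higher in every HCQ-evolved pool of both.

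The other channels did not pass the test. TPCN1 stood at 79.3, 94.5 and 62.5 CPM in control OVCAR3 and at 57.7, 54.5 and 58.9 CPM in HCQ-evolved OVCAR3. All HCQ-evolved pools were lower (log2 fold change -0.45, 95% interval -0.92 to 0.03, adjusted p = 0.337, edgeR). In CCL218 the pools overlapped and the log2 fold change was 0.04 (95% interval -0.24 to 0.33), and the interaction did not pass (0.51, 95% interval 0.03 to 0.99, adjusted p = 0.478, edgeR). TMEM175, a lysosomal potassium and proton channel, was at -0.46 and -0.54 with wide intervals (-1.06 to 0.15 and -1.32 to 0.23). TPCN2 was at -0.03 and 0.21. MCOLN2 and MCOLN3 had 0 to 6 counts per pool outside the R pool of HCQ-evolved OVCAR3, which held 30 and 16.

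Between the control groups, 0 of 36 members differed by edgeR, against 1.35% of all 12613 genes called higher in CCL218 and 2.07% called lower. At an unadjusted p under 0.05, 2 members were higher and 3 lower in CCL218, against 6.60% and 7.88% of all genes. Pools lay apart upward for 3 and downward for 3 (8.66% and 9.13% of all genes), and 18 differences lay on each side of 0 (50.8% and 49.2%). DESeq2 called 1, ATP6V1B1, against 7.33% of all genes. ATP6V1B1 was at 121 ± 29.5 CPM in control OVCAR3 and 56.5 ± 25.2 CPM in control CCL218, and every CCL218 pool was below every OVCAR3 pool (log2 difference -1.10, 95% interval -1.71 to -0.49, adjusted p = 0.0567, edgeR). It passed without control OVCAR3 M (log2 difference -1.25, adjusted p = 0.0472) and without control CCL218 L (log2 difference -1.53, adjusted p = 0.00313). The interaction test called 0 of 36 members, against 0.690% and 0.182% of all genes called higher and lower. At an unadjusted p under 0.05 it gave 2 higher and 2 lower (5.41% and 3.70% of all genes). DESeq2 called 1 in the interaction, ATP6V0E2, against 3.67% of all genes. Differences lay above 0 for 18 members and below for 18, against 46.3% and 53.7%.

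Genes around the pump were taken from fixed lists, and their counts stand against the 3.82% of all genes called higher in CCL218. Of 11 further assembly and TLDc regulators, 10 were tested in CCL218 and 1 rose, TLDC2, whose relatives of the TLDc family bind V1. It stood at 0.221, 0.348 and 0.213 CPM in control and 1.498, 2.10 and 1.82 CPM in HCQ-evolved pools (log2 fold change 2.77, 95% interval 2.06 to 3.49, adjusted p = 0.00475, edgeR). TLDC2 passed the filter of 1 CPM only through its HCQ-evolved pools, the group where it is high, which limits this test. In OVCAR3 it was below the filter and not tested. Of 8 tested endosomal and lysosomal ion transporters, 1 rose in CCL218, P2RX4, an ATP-gated channel found on lysosomes. It stood at 16.8, 13.4 and 13.6 CPM in control and 27.6, 29.6 and 25.1 CPM in HCQ-evolved pools (log2 fold change 0.90, 95% interval 0.56 to 1.25, adjusted p = 0.0166, edgeR). Among 12 tested genes of Ragulator, the Rag GTPases and SLC38A9, which sense amino acids on the lysosome with the pump, the smallest adjusted p was 0.0837 in CCL218 and 0.305 in OVCAR3 (edgeR). In OVCAR3 the smallest adjusted p was 0.31 among the regulators and 0.432 among the transporters.

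Of the MiT/TFE factors, TFEB and TFE3 were tested, and neither passed the test in either line. TFEB was at 37.6 ± 5.78 and 40.6 ± 0.968 CPM in OVCAR3 and at 23.6 ± 1.26 and 27.8 ± 1.90 CPM in CCL218. Between control groups it was lower in CCL218 (log2 difference -0.68, 95% interval -0.98 to -0.37, adjusted p = 0.0198, edgeR).

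Pools deviated from the mean of their line with transcript length, and this touches the member values above. That mean was taken over control and HCQ-evolved pools together, so the deviations hold group differences as well as the spread between pools. Over the tested members, the Spearman correlation of a pool's deviation with length was 0.588 in control OVCAR3 M and 0.776 in HCQ-evolved OVCAR3 R, and -0.617 to -0.441 in the other OVCAR3 pools. In CCL218 it ran from -0.544 (control L) to 0.655 (control M). All genes showed the same trend, from -0.513 to 0.579. Long members such as DMXL2 were high and short ones such as ATP6V0E1 and ATP6V0B low in the R pool of HCQ-evolved OVCAR3, which held the highest OVCAR3 value of 15 of 43 members with a count. Other pools came near or level with it. Control OVCAR3 L was highest for 12 of 43, and control CCL218 L for 15 of 44 among the CCL218 pools. The share over all genes was not computed.

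The log2 fold changes of members correlated with length by 0.173 in OVCAR3 and 0.341 in CCL218 (0.163 and 0.254 over all genes), and the difference between control groups by 0.69 (0.528 over all genes). With the length and GC trend removed, the member correlations were -0.06, 0.00 and -0.04, and edgeR called 7 of 35 members in CCL218, against 19.4% of all genes in that setting. These were ATP6AP1L and ATP6AP2 as higher and ATP6V0E2, ATP6V0A2, ATP6V1C2, CLCN7 and ATP6V1B1 as lower, with ATP6V0E2 at a log2 fold change of -0.80 (adjusted p = 0.00652). In OVCAR3 the same setting called 1 of 34, ATP6V1G1, as lower, against 8.88% of all genes.

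**Figure D5:**
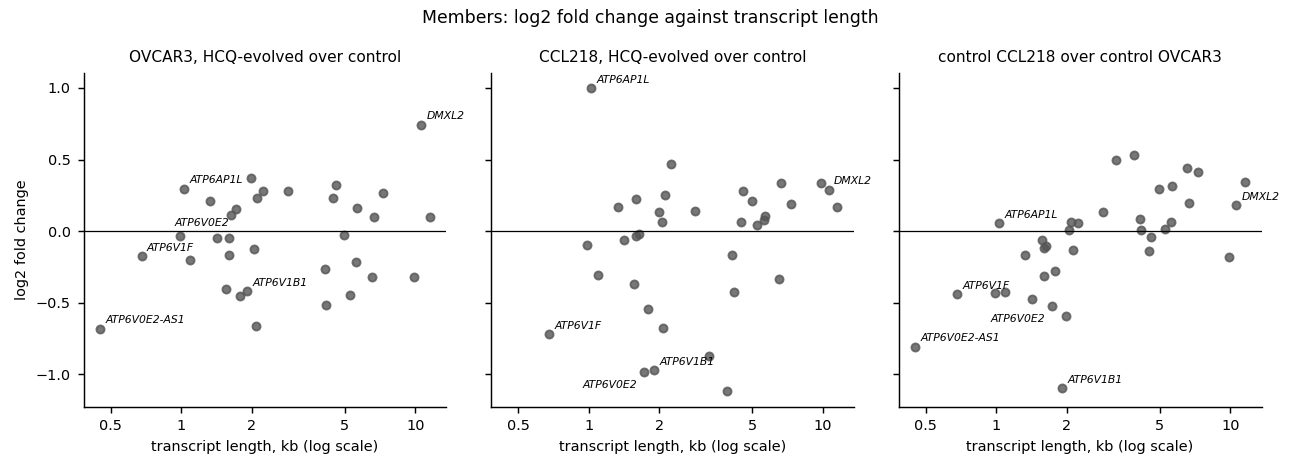
Log2 fold change of each tested member against the length of its canonical transcript (log axis), for both evolution comparisons and for the control groups. The control comparison rises with length (Spearman 0.69 over 36 members), against 0.173 over 34 members in OVCAR3 and 0.341 over 35 in CCL218.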

How the data were processed

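PolyA-selected RNA of 12 pools was sequenced. Per the paper's methods and the labels, STAR aligned the reads (hg38), RmDup took out duplicates, and the authors deposited raw counts per gene made by featureCounts (versions and strand setting not given in the sources used here). Depth is given in the report. Of entries of 1 to 4 counts, 78.9% were even, so 1 fragment may often give 2 counts, and limits of 3 counts cover counting error only.

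Counts were scaled by TMM. A gene entered a fit if 3 or more libraries reached 1 CPM. edgeR 4.0.16 in R 4.3.3 gave quasi-likelihood p-values (robust, legacy mode), each line alone, with Benjamini-Hochberg adjustment over all genes and a threshold of 0.05. The interaction and the control groups were tested in 1 fit of 12 libraries. CPM in the text are scaled over all 12 libraries. Lengths and positions came from GENCODE 44, matched for 25763 of 28278 symbols (91.1%) and all 46 members. Alternatives were RLE factors, DESeq2 1.42.0, no filter, 1 fit of all libraries, single pools left out, a spline (5 df) in length and GC content as an offset, and a block for plate position. The code was tested on simulated data.

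After group means were removed, same-position control and HCQ-evolved pools correlated across genes by 0.578 (L), 0.31 (M) and 0.241 (R) in CCL218. Each exceeds 0.1, but control M correlated more with HCQ-evolved R (0.516), and these pools of unlike position correlated by 0.747 in OVCAR3. The correlations thus do not settle whether plate positions are paired. The tests carry no block, and blocked values are given where they change a call. In OVCAR3 same-position pools correlated by 0.452, -0.726 and -0.528.

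Members named with values are those called, ATP6V1A, the smallest p of each role in each line, the most abundant of each role, and paralogous subunits. Genes outside this rule are named for context and were chosen after their values were seen. The members, lists and rules were chosen with earlier results of these data known. Exome, single-cell and CRISPR data were not analysed here.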

Additional observations from a re-analysis of the deposited data

Results flagged for a closer look

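ATP6AP1 was the member whose pools lay apart in opposite directions in the lines. Its HCQ-evolved pools were all below control in OVCAR3 (log2 fold change -0.12, 95% interval -0.47 to 0.23) and all above control in CCL218 (0.0615, 95% interval -0.19 to 0.31). The test of the difference between the lines gave a log2 difference of 0.21 (95% interval -0.12 to 0.53, adjusted p = 0.882, edgeR) and did not pass.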

How the results depend on the processing

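Counts of members called kept within 1.5 times of the reported count under RLE factors in all 4 comparisons. The share called over all genes in the same setting stands in brackets. In CCL218 the count of 2 (6.46% of all genes) was 8 with DESeq2 (17.7%), 4 with no filter (4.62%), 4 with the replicate block (14.2%), 7 with the length and GC trend removed (19.4%), 5 with block and trend removal together (17.2%), and 0 to 6 with single pools left out (6 without control L, 25.2%, 1 without control M, 3.65%, and 0 without each of the others, 0.841 to 1.21%). In OVCAR3 the count of 0 (1.86%) became 1 with the trend removed (8.88%). It stayed 0 with DESeq2 (9.05%), with single pools left out (0.0250 to 4.60%) and with the block (0.664%). The same held with control M and HCQ-evolved R both left out (6.18%), a setting chosen after seeing the data. The interaction count of 0 (0.872%) became 1 with DESeq2 (3.67%), with the trend removed (3.51%) and with block and trend removal (1.25%). It was 0 with any pool left out (0.302 to 1.69%). Between control groups the count of 0 (3.42%) became 1 with DESeq2 (7.33%), no filter (1.87%), the trend removed (6.17%) and block and trend removal (3.26%). It was 0 to 2 with pools left out. These were 2 without control CCL218 L (6.30%), 1 without control OVCAR3 M (2.97%) and 0 without each of the others (1.44 to 1.89%). Same-position control and HCQ-evolved pools of OVCAR3 correlated by 0.452 (L), -0.726 (M) and -0.528 (R), and the block gave 0 calls there.

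Directions that turned were small. ATP6V0C in CCL218 went from -0.31 to 0.02 (0.0158) with the trend removed, to 0.0150 with block and trend removal, and from -0.49 to 0.0530 over single pools left out. ATP6V1F in OVCAR3 went from -0.18 to 0.0044 and 0.012 under these, and from -0.42 to 0.16 over pools left out. ATP6V0E2 in OVCAR3 ran from -0.0085 to 0.30 and TPCN1 in CCL218 from -0.012 to 0.12 over pools left out. The cause was not tested. Precision is limited by 3 pools of 1 plate per group.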
